A study of Homo sapiens with 19 samples.

Results

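The 42 genes described here drive or mark cell division. They were taken as a list of gene symbols with no threshold on a measured value, drawn up when earlier results of these data were known. All 42 were found by symbol among the 78894 genes of the count table. All 42 were also among the 23121 genes that passed the filter on low counts. By the phase in which their products are best known to act, 17 were treated as S-phase genes and 24 as mitotic genes (with the G2/M transition), and the G1 cyclin gene CCND1 was described alone. Their transcripts were counted in 19 RNA-seq libraries from HepaRG, a human line of hepatic carcinoma origin. Its precursors mature in culture into cells that resemble hepatocytes and bile duct cells. The cells had been differentiated in multiwell plates before any treatment. Batch 1 held 3 libraries each of a negative control siRNA (siNC), an siRNA against ADAR and an siRNA against ADARB1. Batch 2 held its own siNC libraries (n = 3), interferon alpha (IFNa, n = 2), BX795 (n = 3) and BX795 with the ADAR siRNA (n = 2). Doses were 20 nM for each siRNA, 1000 U/mL for IFNa and 1 µM for BX795, and the compounds stayed in the medium from the day of transfection on. The sources used here give neither the time of harvest nor whether siNC was also given to the wells that had IFNa or BX795 alone. The labels give all groups the same lipid transfection protocol and a last medium without serum. For the libraries with IFNa or BX795 alone no siRNA dose is given, so their transfection is not settled. Each target was hit by 1 siRNA sequence per the labels, so no second siRNA checks its specificity. The study's title names RNA editing proteins and pharmacogenes as its subject, and the question here is what the same treatments did to the division genes.

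The enzymes made from ADAR and ADARB1 edit RNA by turning adenosine into inosine within duplexes. Type I interferons such as IFNa are cytokines known to slow the growth of many cells. The compound BX795 was first described as an inhibitor of PDK1 and also blocks TBK1 and IKK epsilon, which act downstream of innate immune sensors. A dividing cell passes from G1 into S phase when cyclin D and cyclin E kinases release E2F transcription factors from the retinoblastoma protein and its relatives. E2F then switches on the genes for origin licensing, the replicative helicase and nucleotide supply. Genes needed for mitosis are switched on later, by complexes that contain B-MYB (MYBL2) and FOXM1 and bind at the cell cycle genes homology region (CHR), often together with NF-Y at CCAAT boxes. In resting cells the DREAM complex represses both sets. Most hepatocytes of the adult liver rest outside the cycle but can return to it after injury, and HepaRG precursors proliferate until they are differentiated.

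The promoters of both classes carried the letters this scheme would lead a reader to look for, a feature the list did not use. RefSeq promoter windows (GRCh38.p14, 250 bases before to 50 bases after the annotated start) were matched by symbol for 32 of the 42 genes, 5 of them with more than 1 window. The letters searched on both strands were TTTGAA or TTCGAA for CHR, CCAAT for NF-Y, and TTCCCGC or TTGGCGC for E2F. A reversed CCAAT can share letters with TTGGCGC. An E2F match was present for 12 of 14 S-phase genes (85.7%) and 2 of 18 mitotic genes (11.1%), against 11% of all 27305 genes with a window. A CHR match was present for 12 of 18 mitotic genes (66.7%) and 2 of 14 S-phase genes (14.3%), against 19.5% of all genes. CCAAT was found for 15 of 18 mitotic genes (83.3%), 9 of 14 S-phase genes (64.3%) and 39.7% of all genes. CHR and CCAAT were found together for 61.1% of the mitotic genes, 14.3% of the S-phase genes and 9.02% of all genes. A match is a string of letters, not a measured binding site. The 250 bases before the start are printed for MCM6, a subunit of the replicative helicase, and TOP2A, the topoisomerase that untangles chromosomes for mitosis. They were the S-phase and the mitotic gene with the smallest p in the direct comparison of the ADAR and ADARB1 siRNAs. Both lie on the minus strand, MCM6 at chr2:135876444-135876693 and TOP2A at chr17:40417897-40418146, and are written 5′ to 3′ along the gene with the matches in capitals.
MCM6: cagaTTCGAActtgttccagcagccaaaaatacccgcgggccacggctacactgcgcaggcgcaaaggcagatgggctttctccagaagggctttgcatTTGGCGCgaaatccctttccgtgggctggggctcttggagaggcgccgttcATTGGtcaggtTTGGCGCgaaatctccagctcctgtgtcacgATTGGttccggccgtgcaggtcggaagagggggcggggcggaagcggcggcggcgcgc
TOP2A: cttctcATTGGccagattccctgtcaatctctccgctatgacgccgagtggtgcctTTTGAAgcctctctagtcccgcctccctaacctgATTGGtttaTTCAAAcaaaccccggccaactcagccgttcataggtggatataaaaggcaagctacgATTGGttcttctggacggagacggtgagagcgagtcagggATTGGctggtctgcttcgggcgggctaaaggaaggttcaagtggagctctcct
In MCM6 the capitals mark E2F letters that begin at -151 and -89 relative to the start, CCAAT letters in reverse (ATTGG) at -100 and -58, and CHR letters at -246. In TOP2A they mark CHR letters at -194 and, in reverse, at -151, and CCAAT letters in reverse at -244, -160, -93 and -53. TOP2A had no E2F match in its window.

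Library totals ran from 42.7 to 77.1 M counts in batch 1 and from 13.1 to 34.7 M in batch 2, so weakly expressed members carried wider errors in batch 2. ADAR stood at 262 ± 2.26 CPM (SD, n = 3; CPM is the count scaled to the library's TMM-adjusted total) with siNC and 64.6 ± 5.32 with its siRNA, and ADARB1 at 32.6 ± 1.1 and 10.9 ± 0.559. In batch 2, ADAR stood at 268 ± 14.5 CPM with BX795 and 54.2 ± 2.36 with BX795 and the ADAR siRNA. All 8 hepatocyte markers were expressed in all groups, with a summed level of 47400 to 67300 CPM in batch 1 and 6170 to 12000 CPM in batch 2. Endothelial markers summed to at most 2.17 CPM and blood cell markers to at most 17.2 CPM. The batch 2 siNC libraries stood apart in base composition. Their GC trend, the log2 level of genes over 60% GC less that of genes under 40% GC around the batch mean, was 0.27, 1.06 and 0.90. It was -0.67 to 0.10 in the other batch 2 libraries and -0.09 to 0.11 in batch 1. For the S-phase and mitotic genes, batch 2 results are therefore given with a correction for GC content where it changes them. Their counts against siNC are also given with siNC replicate 1 as the only control, an alternative chosen after seeing the data. The labels do not say whether replicates came from separate cultures, so p-values measure the spread between libraries. In bulk RNA, fewer dividing cells and less RNA of these genes per cell cannot be told apart.

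In the differentiated control cells of batch 1, the division genes were expressed at a wide range of levels. Per kilobase of the longest transcript, the DNA clamp PCNA led with 54.1 CPM per kb, followed by CCND1 at 39.6 and the thymidylate synthase TYMS at 35.1. All 6 MCM helicase subunits lay between 8.74 and 32.6 CPM per kb. TOP2A stood at 8.21 and the kinase CDK1 at 7.20 CPM per kb, and the least expressed members were UBE2C at 0.582 and CCNB2 at 0.160. CCNB2 and UBE2C stayed below 1 CPM in every library, so for these members only large changes were detectable. The batch 2 controls had lower levels of most members. The ratio of batch 1 to batch 2 control levels had a median of 2.01 over the S-phase genes (range 0.902 to 5.95) and 1.44 over the mitotic genes (0.762 to 2.56). It was largest for the cyclin gene CCNE2 (5.95) and the licensing factor CDC6 (4.49), and lowest for the mitotic kinase PLK1 (0.762). The labels give both control groups the same siNC dose and no compound, so this ratio is a difference between batches. The hepatocyte markers of these controls summed to 63300 to 67300 CPM in batch 1 and 9610 to 12000 CPM in batch 2. What lies behind the ratio was not tested, and all comparisons but the last were made within a batch. The heat map by library shows the 42 genes against the siNC mean of their own batch.

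**Figure D1:**
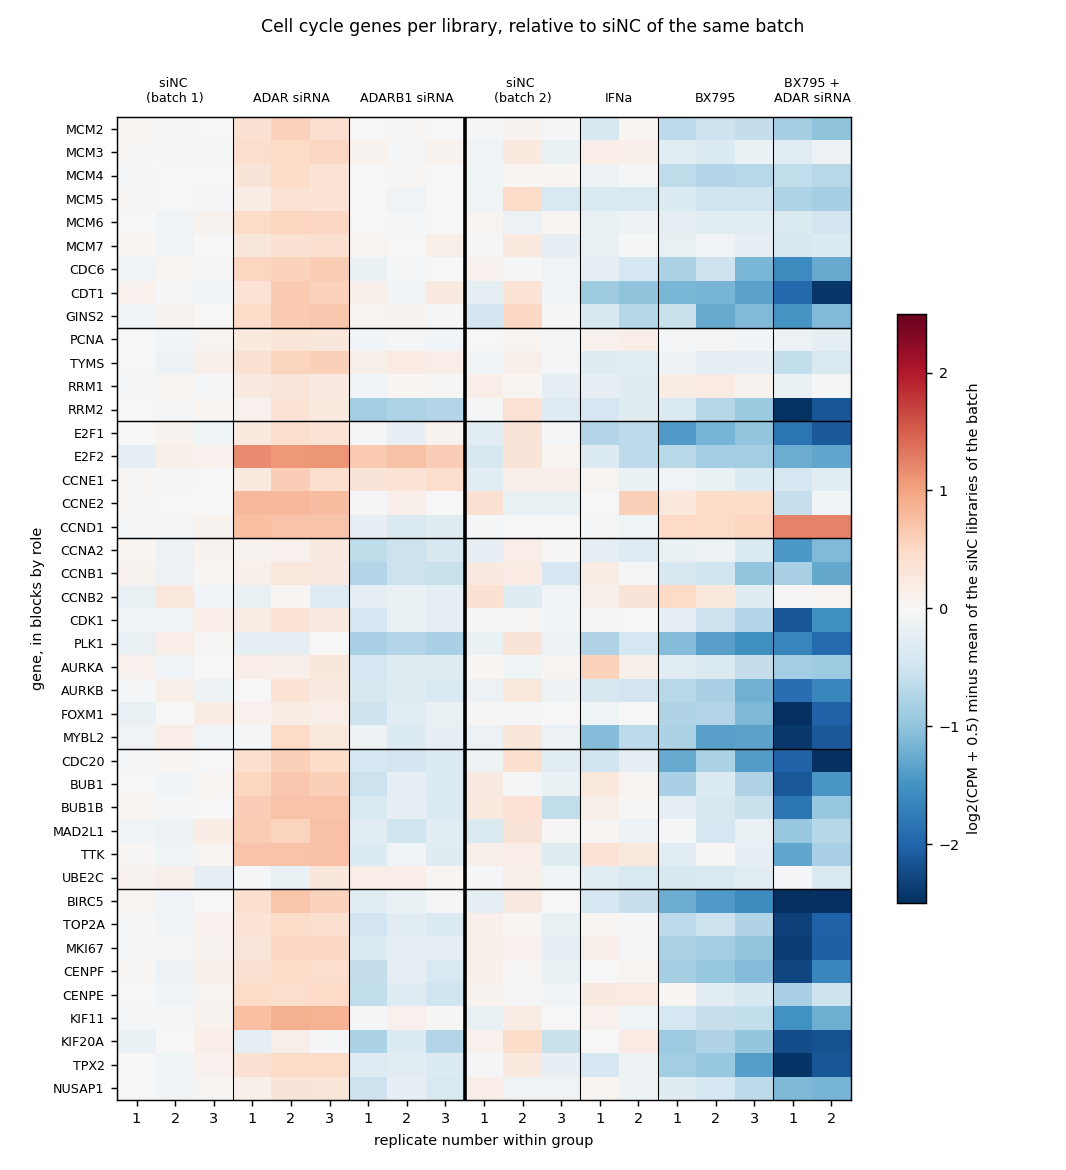
Level of 42 cell cycle genes (rows, in blocks by role) in 19 libraries (columns, by group and replicate), as log2(CPM + 0.5) minus the mean of the siNC libraries of the same batch. The heavy line separates the batches. The ADAR siRNA columns are mostly red in batch 1, and the BX795 with ADAR siRNA columns are mostly blue in batch 2, apart from CCND1.

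With the ADAR siRNA, genes of both classes rose. Of the 17 S-phase genes 14 were called higher and none lower, and of the 24 mitotic genes 12 were called higher and none lower (edgeR's quasi-likelihood test, adjusted p below 0.05 over all tested genes). The background was 11% of the 23121 tested genes called higher, and 10.8% lower. The median log2 fold change was 0.49 for the S-phase genes and 0.34 for the mitotic genes, against -0.02 over all tested genes. Summed over the class, S-phase transcripts stood at 840 ± 36.2 CPM (SD, n = 3) with the ADAR siRNA and 638 ± 12.0 CPM with siNC. The mitotic sum was 432 ± 23.3 against 323 ± 16.8 CPM. By role, 8 of 9 helicase and licensing genes, 3 of 4 genes of the clamp and nucleotide supply and 3 of 4 S-phase regulators of the G1/S step (CCNE1, CCNE2 and E2F2, but not E2F1) rose. Among mitotic genes, 5 of 6 genes of the spindle checkpoint and anaphase-promoting complex rose, as did 7 of 9 genes of spindle and chromosome structure. None of the 9 genes for mitotic kinases, cyclins and transcription factors was called in the fit of all libraries, with values from -0.36 (CCNB2) to 0.28 (MYBL2). Their median was 0.2, so the lack of calls is not read as a lack of change. The fit of the batch alone called 1 of these 9 higher. It called 14 of the 24 mitotic genes higher, against 19.1% of all tested genes.

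Among S-phase genes, the helicase subunit MCM6 stood at 42.6, 40.4 and 45.7 CPM with siNC and at 59.7, 62 and 61.7 CPM with the ADAR siRNA. The groups did not overlap. Its log2 fold change was 0.51 ± 0.06 (SE; adjusted p = 9.21e-06), a 1.42-fold rise. E2F2, an activator E2F, went from 2.84, 3.85 and 3.74 CPM to 8.43, 7.91 and 7.99 CPM. All 3 treated libraries lay above all 3 controls, and the rise of 1.22 ± 0.16 (adjusted p = 1.9e-05) was the largest in the class. TYMS, which makes the thymidine nucleotide for DNA, stood at 57.9, 53.3 and 63.6 CPM with siNC and 76.0, 86.1 and 87.7 CPM with the siRNA. The 2 sets of libraries were separate, and the difference was 0.51 ± 0.08 (adjusted p = 8.64e-05). Smaller changes were seen for PCNA (0.28 ± 0.05, adjusted p = 0.00108) and the ribonucleotide reductase subunit RRM1 (0.25 ± 0.08, adjusted p = 0.0266). The S-phase genes that were not called were MCM5 (0.31 ± 0.12, adjusted p = 0.0672), RRM2 (0.23 ± 0.13, adjusted p = 0.231) and E2F1 (0.33 ± 0.13, adjusted p = 0.0785). In the fit of batch 1 alone, whose libraries varied less, all 17 were called higher, against 19.1% of all tested genes.

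Among mitotic genes, the spindle motor KIF11 stood at 8.93, 9.14 and 9.87 CPM with siNC and at 16, 17.6 and 17.5 CPM with the ADAR siRNA. Controls and treated libraries were far apart, and the fold change was 1.83 (log2 0.87 ± 0.11, adjusted p = 8.43e-06). TTK, the kinase that starts the spindle checkpoint, had 5.53, 4.96 and 5.66 CPM with siNC and 9.08, 9.17 and 9.20 CPM with the siRNA. The treated libraries were close to each other and above all controls, with a rise of 0.76 ± 0.14 (adjusted p = 0.000703). MKI67, which codes for the proliferation marker Ki-67, stood at 67.6, 68.6 and 74.5 CPM against 87.0, 101 and 100 CPM. Its groups did not overlap, and it rose by 0.45 ± 0.09 (adjusted p = 0.00176). The checkpoint genes BUB1B (0.71 ± 0.18), MAD2L1 (0.67 ± 0.15) and BUB1 (0.62 ± 0.15) rose as well. PLK1 stood at -0.15 ± 0.15 (adjusted p = 0.553), the kinesin KIF20A at -0.04 ± 0.18 (adjusted p = 0.931), cyclin A2 (CCNA2) at 0.14 ± 0.11 (adjusted p = 0.409) and CDK1 at 0.25 ± 0.13 (adjusted p = 0.207). In these libraries the hepatocyte markers summed to 47400 to 50800 CPM against 63300 to 67300 CPM with siNC. The biliary and progenitor markers summed to 847 to 877 CPM against 359 to 399 CPM, with EPCAM under 0.1 CPM throughout. The mesenchymal markers summed to 90.1 to 94.8 CPM against 99.5 to 105 CPM. The part of these differences in the division genes was not tested.

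**Figure D2:**
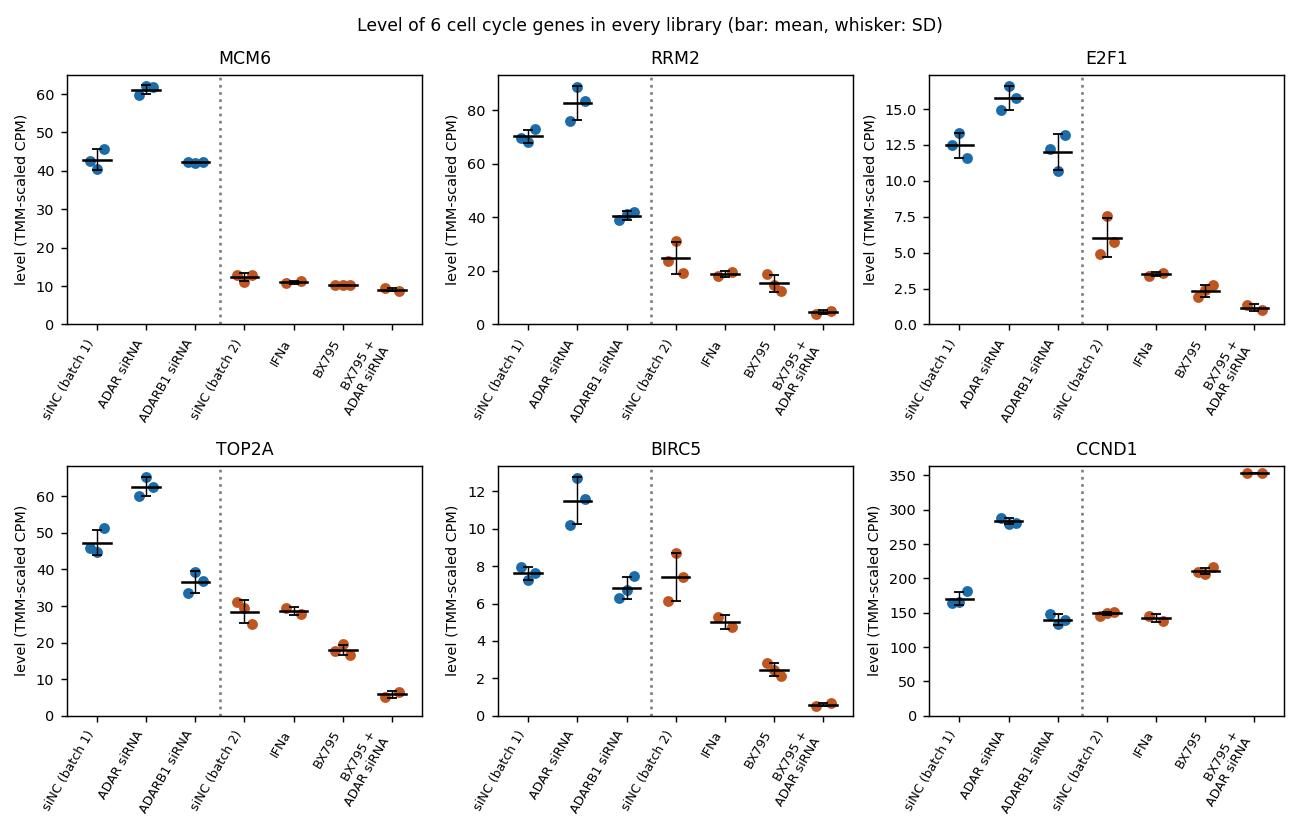
Level in TMM-scaled CPM (vertical axes, linear from 0) of MCM6, RRM2, E2F1, TOP2A, BIRC5 and CCND1 in every library by group (points), with the mean (bar) and SD (whisker). The dotted line separates batch 1 from batch 2. CCND1 is highest at 353 CPM with BX795 and the ADAR siRNA, where BIRC5 and TOP2A are lowest.

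With the ADARB1 siRNA few members were called, and most of these were mitotic genes that fell. Of the mitotic genes 5 of 24 were called lower and none higher, against 2.51% of all tested genes lower and 2.1% higher. Of the S-phase genes 1 was called higher (E2F2) and 1 lower (RRM2). The median log2 fold change was -0.37 for the mitotic genes and 0.02 for the S-phase genes, against 0 over all tested genes. The fit of batch 1 alone called 17 of 24 mitotic genes lower, against 7.76% of all tested genes. Leaving out siNC replicate 1 or 3, or ADARB1 siRNA replicate 1 or 3, left 1 or 2 mitotic calls in the fit of all libraries. The share of all tested genes in these refits was not counted. The summed mitotic level was 253 ± 14.8 CPM with the ADARB1 siRNA and 323 ± 16.8 CPM with siNC. The S-phase sums were 623 ± 9.81 and 638 ± 12.0 CPM.

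RRM2, the regulated subunit of ribonucleotide reductase, stood at 69.7, 68.0 and 72.9 CPM with siNC and at 38.9, 41.1 and 41.9 CPM with the ADARB1 siRNA. Every treated library lay far under every control, with a change of -0.79 ± 0.13 (adjusted p = 0.00117). E2F2 stood at 2.84, 3.85 and 3.74 CPM with siNC and at 5.69, 6.07 and 5.58 CPM. It rose by 0.73 ± 0.16 (adjusted p = 0.0107), a call lost without siNC replicate 1 (0.61, adjusted p = 0.083) or ADARB1 siRNA replicate 2 (0.70, adjusted p = 0.0521). The cyclin E gene CCNE1 stood at 2.44, 2.32 and 2.38 CPM with siNC and 3.08, 3.15 and 3.41 CPM with the siRNA. Its groups were separate but it was not called (0.43 ± 0.15, adjusted p = 0.131; adjusted p = 0.0445 in the fit of the batch alone). All 9 helicase and licensing genes were uncalled, MCM6 with 42.3, 42.1 and 42.4 CPM against the control values above.

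PLK1, the kinase that drives entry into and passage through mitosis, stood at 6.23, 8.05 and 7.30 CPM with siNC and at 3.87, 4.08 and 3.89 CPM with the ADARB1 siRNA. The treated libraries were all lower, with a change of -0.86 ± 0.16 (adjusted p = 0.00252). CCNA2, the cyclin of S phase and G2, had 14.3, 12.5 and 14.7 CPM in controls and 8.67, 9.39 and 10.3 CPM with the siRNA. The groups did not overlap (-0.55 ± 0.11, adjusted p = 0.00597), and without ADARB1 siRNA replicate 1 the value was -0.49 (adjusted p = 0.0505). The kinetochore motor CENPE stood at 9.79, 9.16 and 10.3 CPM against 6.18, 7.70 and 6.74 CPM. It fell by 0.50 ± 0.12 on the log2 scale (adjusted p = 0.0156) with no overlap, and was not called without siNC replicate 1 or 3 or ADARB1 siRNA replicate 1 or 3 (adjusted p from 0.061 to 0.107). The cyclin B1 gene CCNB1 (-0.66 ± 0.17, adjusted p = 0.032) and TOP2A (-0.37 ± 0.09, adjusted p = 0.0199) were the other mitotic genes called.

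Set directly against the ADARB1 siRNA, the ADAR siRNA gave higher levels of 15 of 17 S-phase genes and 21 of 24 mitotic genes, and lower levels of none. The background was 9.9% of tested genes higher and 9.64% lower. Median log2 differences were 0.44 and 0.74, against -0.03 over all tested genes. This comparison rests on libraries that also enter the comparisons with siNC. TOP2A stood at 60.2, 65.3 and 62.5 CPM with the ADAR siRNA and at 33.6, 39.4 and 36.8 CPM with the ADARB1 siRNA, with siNC between them at 45.9, 44.8 and 51.2 CPM. None of the 3 groups overlapped another, and the difference between the siRNAs was 0.78 ± 0.09 (adjusted p = 4.64e-06). RRM2, at 75.8, 88.6 and 83.4 CPM with the ADAR siRNA, was 2.03-fold as high as with the ADARB1 siRNA (log2 1.02 ± 0.13, adjusted p = 1.64e-05). MCM6 differed by 0.53 ± 0.06 (adjusted p = 6.46e-06) and the helicase subunit MCM4 by 0.36 ± 0.06 (adjusted p = 0.000203), from 63.0, 65.2 and 64.3 CPM to 79.4, 87.1 and 80.9 CPM. CENPE (0.99 ± 0.12, adjusted p = 5.77e-06) and KIF11 (0.82 ± 0.11, adjusted p = 1.76e-05) differed likewise. Several kinases and cyclins that were not called against siNC under the ADAR siRNA, in the fit of all libraries, were higher here. CCNA2 differed by 0.69 ± 0.11 (adjusted p = 0.000183) and PLK1 by 0.71 ± 0.16 (adjusted p = 0.00319). PLK1 stood at 6.02 to 7.23 CPM with the ADAR siRNA, 6.23 to 8.05 with siNC and 3.87 to 4.08 with the ADARB1 siRNA. CCNA2 stood at 14.7 to 16.2, 12.5 to 14.7 and 8.67 to 10.3 CPM in the same order. For both genes the ADARB1 siRNA libraries were the ones that lay apart from siNC. All 9 genes of spindle and chromosome structure were called, and 7 of 9 kinases, cyclins and transcription factors. The members not called were MCM5, CCNE1, CCNB2, UBE2C and MYBL2. Without ADAR siRNA replicate 2 or 3, or ADARB1 siRNA replicate 1 or 2, the S-phase count was 9. The share of all tested genes in these refits was not counted, so the drop is not read as particular to these genes.

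With IFNa, calls were more frequent among S-phase than among mitotic genes, a difference that was not tested. Of the S-phase genes 6 of 17 were called lower, and of the mitotic genes 3 of 24 lower and 1 higher (AURKA), while 15.9% of all tested genes were called lower and 18.4% higher. The median log2 fold changes were -0.27 and -0.01, against -0.02 over all tested genes. These calls did not hold well across settings. The fit of batch 2 alone called 2 S-phase genes and 1 mitotic gene, all lower, against 8.14% of all tested genes. With siNC replicate 1 as the only control 2 and 0 were called, against 3.91% lower. After correction for GC content 6 S-phase and 4 mitotic genes were called lower, against 11.7% of all tested genes, of which 3 and 2 were called without it, and the mitotic median was -0.24. Without IFNa replicate 1 the counts were 1 and 0. Without IFNa replicate 2, 3 S-phase genes were called, and without siNC replicate 2, 1 mitotic gene. For the fits without a library the share of all tested genes was not counted.

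CDT1, which loads the helicase onto origins, stood at 4.66, 7.27 and 5.26 CPM with siNC and at 2.82 and 2.55 CPM with IFNa. Both treated libraries lay under all controls. Its change of -1.08 ± 0.20 (adjusted p = 0.000572) was the largest of any member and became -0.48 (adjusted p = 0.0426) after GC correction. E2F1, the best-known activator E2F, stood at 4.90, 7.52 and 5.71 CPM against 3.39 and 3.61 CPM. The groups were separate (-0.78 ± 0.18, adjusted p = 0.0027), but the GC-corrected value was -0.31 (adjusted p = 0.164). It was also not called without IFNa replicate 1 (-0.73, adjusted p = 0.051). TYMS stood at 32.0, 37.0 and 33.1 CPM against 27.5 and 27.9 CPM. Its lower values (-0.30 ± 0.09, adjusted p = 0.0201) were not called in the fit of the batch alone (adjusted p = 0.0778), nor without siNC replicate 2 (adjusted p = 0.0849), IFNa replicate 1 (adjusted p = 0.139) or IFNa replicate 2 (adjusted p = 0.0596).

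MYBL2, the transcription factor B-MYB, stood at 3.48, 4.91 and 3.48 CPM with siNC and at 1.59 and 2.30 CPM with IFNa. Both IFNa libraries were lower than the controls, by -1.04 ± 0.25 (adjusted p = 0.00444). The value was -0.67 (adjusted p = 0.0344) after GC correction and -0.78 (adjusted p = 0.114) without IFNa replicate 1. BIRC5, which codes for the chromosomal passenger protein survivin, had 6.12, 8.70 and 7.41 CPM against 5.29 and 4.77 CPM. The groups did not overlap (-0.55 ± 0.16, adjusted p = 0.0119), and the call was lost without siNC replicate 2, IFNa replicate 1 or IFNa replicate 2 (adjusted p from 0.0592 to 0.075) and in the fit of the batch alone (adjusted p = 0.0712). PLK1 stood at 8.22, 11.7 and 8.37 CPM against 5.36 and 6.78 CPM. Its change of -0.64 ± 0.18 (adjusted p = 0.012) was not called after GC correction (-0.39, adjusted p = 0.0683), without siNC replicate 2 (-0.46, adjusted p = 0.0685) or without IFNa replicate 1 (-0.47, adjusted p = 0.19). TOP2A, at 31.1, 29.4 and 25 CPM with siNC and 29.4 and 27.8 CPM with IFNa, showed overlapping groups (adjusted p = 1), but stood at -0.31 (adjusted p = 0.021) after GC correction. MKI67 overlapped as well, at 37.1, 36.8 and 28.7 against 37.0 and 32.9 CPM (adjusted p = 0.883).

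With BX795 members of both classes fell, against a background in which 23.7% of all tested genes were called lower and 23.4% higher. Of the S-phase genes 11 of 17 were called lower, and of the mitotic genes 17 of 24, and none of either class was called higher. The medians were -0.52 and -0.70, against -0.01 over all tested genes. The summed mitotic level was 114 ± 11.5 CPM (SD, n = 3) with BX795 and 199 ± 22.8 CPM with siNC, and the S-phase sums were 250 ± 5.69 and 309 ± 32.3 CPM. By role, 8 of 9 helicase and licensing genes, 1 of 4 genes of the clamp and nucleotide supply and 2 of 4 S-phase regulators of the G1/S step (E2F1 and E2F2) fell. Of the mitotic roles, 7 of 9 kinases, cyclins and transcription factors, 2 of 6 checkpoint genes and 8 of 9 genes of spindle and chromosome structure fell. After GC correction 9 S-phase genes were called lower, with a median of -0.22, and 22 mitotic genes, with a median of -0.88, against 18.1% of all tested genes. With siNC replicate 1 as the only control, 8 and 15 were called, against 10.2%.

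The S-phase gene with the smallest p was MCM4, at 33.3, 37.0 and 36.9 CPM with siNC and 22.8, 21.4 and 21.8 CPM with BX795. The groups were far apart, and MCM4 fell by 0.70 ± 0.06 on the log2 scale (adjusted p = 2.86e-07). E2F1 stood at 4.90, 7.52 and 5.71 CPM against 1.93, 2.39 and 2.75 CPM. Every treated library was under every control (-1.33 ± 0.17, adjusted p = 7.22e-06), and the GC-corrected value was -0.65 (adjusted p = 0.0022). CDT1 had 4.66, 7.27 and 5.26 CPM in controls and 2.27, 2.26 and 1.93 CPM with BX795. Its groups did not overlap, with a change of -1.41 ± 0.18 (adjusted p = 9.62e-06), or -0.58 (adjusted p = 0.00808) after GC correction. The helicase subunit MCM2 was called without the correction (-0.62 ± 0.10, adjusted p = 0.000126) but not with it (-0.21, adjusted p = 0.0842). PCNA stood at -0.03 ± 0.06 (adjusted p = 0.715) and RRM1 at 0.15 ± 0.08 (adjusted p = 0.17).

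Of the mitotic genes, BIRC5 had the smallest p, at 6.12, 8.70 and 7.41 CPM with siNC and 2.82, 2.43 and 2.14 CPM with BX795. The treated libraries were all lower, at 0.333 of the control level (log2 -1.59 ± 0.15, adjusted p = 3.83e-07). MKI67 stood at 37.1, 36.8 and 28.7 CPM against 19.4, 18.3 and 16.9 CPM. There was no overlap (-0.92 ± 0.11, adjusted p = 3.19e-06). PLK1 had 8.22, 11.7 and 8.37 CPM against 4.11, 3.34 and 2.91 CPM, again with no overlap (-1.46 ± 0.17, adjusted p = 4.01e-06). TOP2A fell by 0.67 ± 0.10 (adjusted p = 3.36e-05), and its GC-corrected value was -1.09. CCNA2 (-0.23 ± 0.13, adjusted p = 0.149), CENPE (-0.23 ± 0.14, adjusted p = 0.18) and TTK (-0.21 ± 0.18, adjusted p = 0.363) were not called. After GC correction CENPE stood at -0.79 (adjusted p = 0.000361). The hepatocyte markers summed to 8710 to 9320 CPM with BX795 and 9610 to 12000 CPM with siNC. The mesenchymal markers summed to 142 to 151 CPM with BX795 and 211 to 271 CPM with siNC, and the biliary and progenitor markers to 109 to 125 and 196 to 273 CPM. Their part in the result was not tested.

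**Figure D3:**
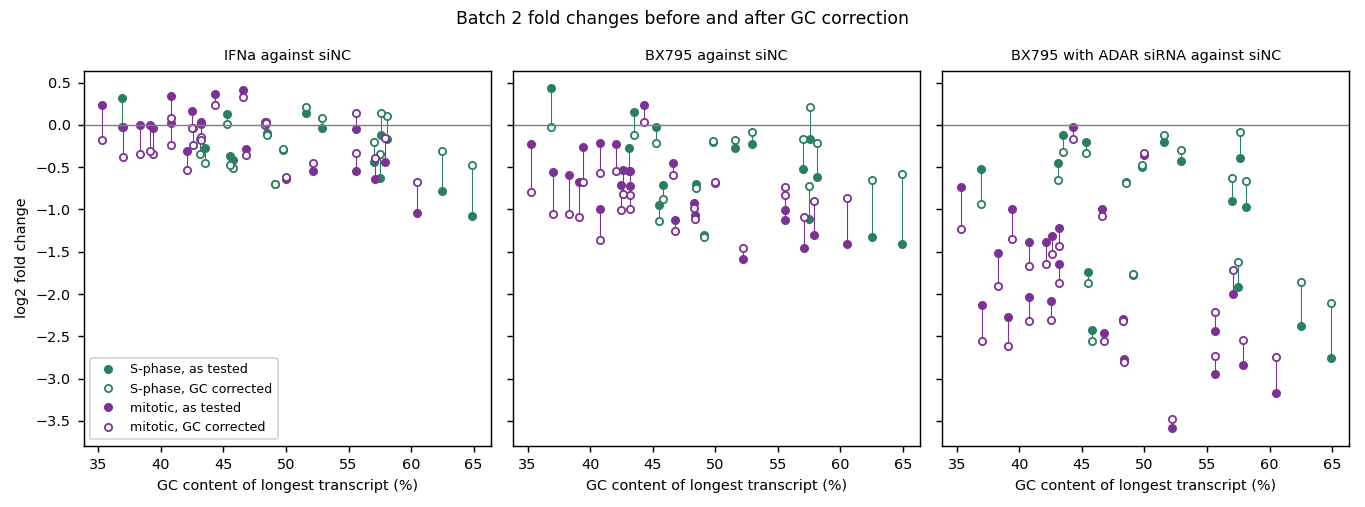
Log2 fold change against siNC (vertical axis) of each S-phase and mitotic gene by the GC content of its longest transcript (horizontal axis, %) in batch 2, as tested (filled) and after GC correction (open, joined by a line). With BX795, the correction moved CDT1, the member of highest GC content, from -1.41 to -0.58, and TOP2A, of low GC content, from -0.67 to -1.09.

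With BX795 and the ADAR siRNA together, the summed levels of both classes were the lowest of the 7 groups. Against siNC, 13 of 17 S-phase genes and 22 of 24 mitotic genes were called lower and none higher, against 18.9% of all tested genes lower and 21.4% higher. The medians were -0.67 for the S-phase genes and -2.01 for the mitotic genes, against -0.02 over all tested genes. The summed mitotic level was 50.7 ± 7.14 CPM (SD, n = 2), against 199 ± 22.8 CPM with siNC and 114 ± 11.5 CPM with BX795 alone. The S-phase sum was 208 ± 3.54 CPM, against 309 ± 32.3 and 250 ± 5.69 CPM. The mitotic genes not called were the sparsely counted CCNB2 and UBE2C. The S-phase genes not called were MCM3, RRM1, CCNE1 and CCNE2. The GC-corrected counts were 14 and 22, against 15.2% of all tested genes, with medians of -0.66 and -2.06. With siNC replicate 1 as the only control 15 and 21 were called, against 10.2%.

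The comparison with BX795 alone sets cells with the ADAR siRNA against cells for which no siRNA dose is given. The ADAR siRNA and the giving of any siRNA may thus not be told apart in it. Against BX795 alone, 20 of 24 mitotic genes were called lower, with a median of -1.16. Of the S-phase genes 6 of 17 were called lower, with a median of -0.35. No member of either class was called higher. Of all tested genes 4.46% were called lower and 5.06% higher, and their median was 0.02. All 9 genes of spindle and chromosome structure, 5 of 6 checkpoint genes and 6 of 9 kinases, cyclins and transcription factors fell. Of the helicase and licensing genes 2 of 9 fell, CDT1 and CDC6. The S-phase count was 3 in the fit of batch 2 alone. It was 10 after GC correction (6.42% of all tested genes lower) and 10 with DESeq2 (6.86% lower). It was 3 without BX795 replicate 2 or BX795 with ADAR siRNA replicate 1, where the share of all tested genes was not counted. The mitotic count was 16 in the fit of batch 2 alone, against 1.89% of all tested genes.

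RRM2 fell in steps, from 23.8, 31.3 and 19.2 CPM with siNC through 18.7, 14.7 and 12.5 CPM with BX795 to 3.99 and 5.16 CPM with BX795 and the ADAR siRNA. The 3 groups did not overlap. Against siNC the change was -2.43 ± 0.19 (adjusted p = 3.12e-08) and against BX795 -1.72 ± 0.19 (adjusted p = 8.35e-06). CDT1 stood at 1.08 and 0.638 CPM with both agents, under all BX795 libraries, by -2.76 ± 0.23 against siNC (adjusted p = 7.48e-08) and -1.35 ± 0.24 against BX795 (adjusted p = 0.00114). E2F1, at 1.33 and 0.999 CPM, was lower than in any other group. It changed by -2.38 ± 0.21 against siNC (adjusted p = 1.06e-07) and -1.05 ± 0.21 against BX795 (adjusted p = 0.00351), the latter not called without BX795 with ADAR siRNA replicate 2 (-0.84, adjusted p = 0.0699). The helicase subunits changed less. MCM4 stood at 23.2 and 21.8 CPM, against 22.8, 21.4 and 21.8 CPM with BX795 alone (0.03 ± 0.07, adjusted p = 0.865). MCM6 stood at 9.41 and 8.77 CPM (-0.18 ± 0.08, adjusted p = 0.216).

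TOP2A fell to 5.21 and 6.61 CPM, from 17.8, 19.5 and 16.7 CPM with BX795 and 31.1, 29.4 and 25 CPM with siNC. No library of a group reached into the next. The level was 0.33 of that with BX795 alone (log2 -1.60 ± 0.12, adjusted p = 1.9e-07), and the change against siNC was -2.27 ± 0.12 (adjusted p = 4.53e-10). MKI67 stood at 6.11 and 7.88 CPM, under all BX795 libraries (-1.37 ± 0.13, adjusted p = 1.65e-06) and all siNC libraries (-2.29 ± 0.13, adjusted p = 7.58e-10). BIRC5 stood at 0.539 and 0.666 CPM, which rests on 15 and 24 counts. With -3.59 ± 0.21 against siNC (adjusted p = 7.58e-10) and -2.0 ± 0.22 against BX795 (adjusted p = 7.29e-06), it had the largest change of any member in both comparisons. The transcription factors of the mitotic programme fell too, FOXM1 by 1.95 ± 0.25 against BX795 (adjusted p = 4.05e-05) and MYBL2 by 1.76 ± 0.33 (adjusted p = 0.00168). PLK1 was not called against BX795 (-0.54 ± 0.20, adjusted p = 0.111). With both agents the hepatocyte markers summed to 6170 to 7560 CPM against 8710 to 9320 CPM with BX795 alone, the biliary and progenitor markers to 187 to 225 against 109 to 125 CPM, and the mesenchymal markers to 121 to 133 against 142 to 151 CPM. Their part in the result was not tested.

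**Figure D4:**
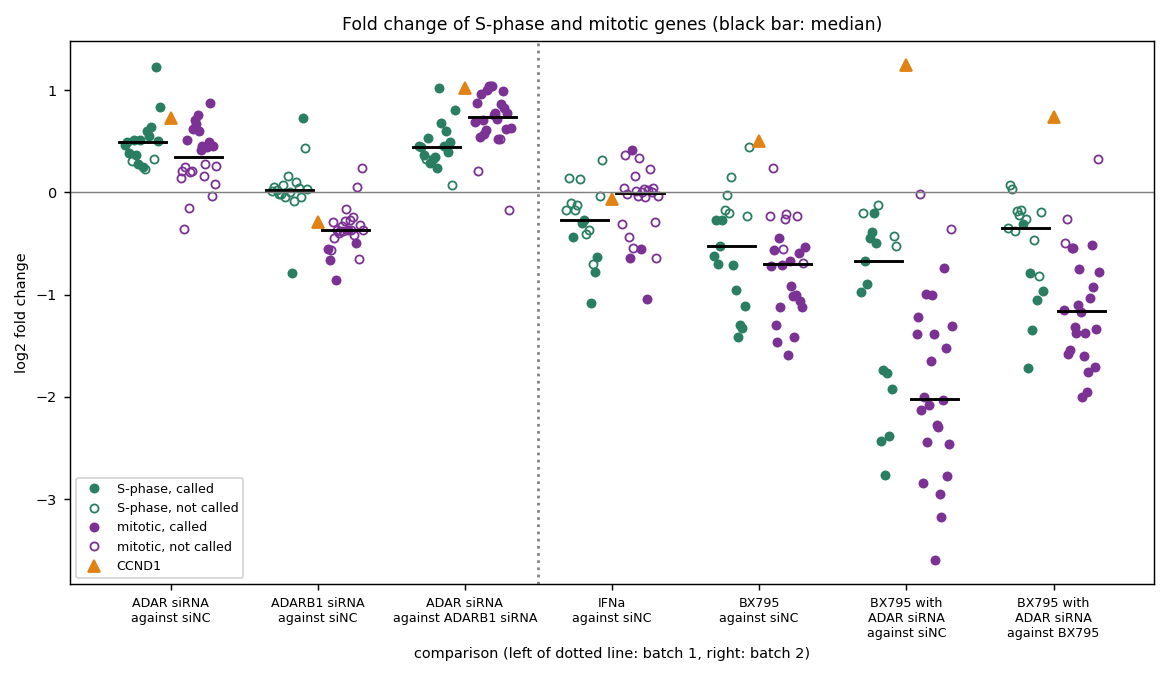
Log2 fold change (vertical axis) of the 17 S-phase genes, the 24 mitotic genes and CCND1 in 7 comparisons (horizontal axis), filled where called at an adjusted p below 0.05, with the class median as a bar. Medians are above 0 for the ADAR siRNA in batch 1 (0.49 and 0.34) and below 0 for BX795 with the ADAR siRNA in batch 2 (-0.67 and -2.01 against siNC), where CCND1 lies at 1.24.

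The median response to the ADAR siRNA had opposite signs without BX795 (batch 1) and with it (batch 2), and the difference itself was tested as an interaction. The difference, with BX795 less without, was negative and called for 13 of 17 S-phase and 20 of 24 mitotic genes and positive and called for none. Of all tested genes 2% were called negative and 1.42% positive. Medians were -0.82 and -1.74, against 0.04 over all tested genes. TOP2A differed by -2.0 ± 0.15 (adjusted p = 6.67e-07), KIF11 by -1.80 ± 0.18 (adjusted p = 1.58e-05) and E2F2 by -2.04 ± 0.32 (adjusted p = 0.000925). All 9 genes of spindle and chromosome structure, all 4 of the clamp and nucleotide supply and 6 of 9 helicase and licensing genes were called. This contrast sets batch 2 against batch 1, whose controls differed in the levels of these genes, so the presence of BX795 and the batch cannot be told apart. Whether the BX795 wells received siNC is also not given, which bears on the comparison with BX795 alone.

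CCND1 rose in both groups with BX795, where no S-phase or mitotic gene was called higher. This gene codes for cyclin D1, which couples growth signals to the G1 kinases CDK4 and CDK6 and acts before E2F. It stood at 164, 166 and 182 CPM with siNC in batch 1, 288, 280 and 281 CPM with the ADAR siRNA, and 148, 133 and 139 CPM with the ADARB1 siRNA. None of these groups overlapped, with a rise of 0.73 ± 0.06 (adjusted p = 3.54e-08) and a fall of 0.29 ± 0.06 on the log2 scale (adjusted p = 0.00462). In batch 2 it stood at 146, 150 and 151 CPM with siNC, 146 and 138 CPM with IFNa, 210, 207 and 216 CPM with BX795, and 353 CPM in both libraries with BX795 and the ADAR siRNA. It was not called with IFNa (-0.07 ± 0.06, adjusted p = 0.418). It rose with BX795 (0.50 ± 0.06, adjusted p = 3.03e-06), and again when the ADAR siRNA was added (0.74 ± 0.06 against BX795, adjusted p = 4.57e-07; 1.24 ± 0.06 against siNC, adjusted p = 1.95e-10). Its response to the ADAR siRNA had nearly the same size without BX795 in batch 1 and with it in batch 2, 0.73 and 0.74. The difference was 0.01 ± 0.08 (adjusted p = 0.986). BX795 and the batch cannot be told apart in it, and no siRNA dose is given for BX795 alone.

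Genes of the same machinery outside the list were counted in 3 sets, given with the share of all tested genes called in the same direction. For these sets, batch 2 counts and values are given as tested. How GC correction or siNC replicate 1 as the only control would change them is not given. Of 42 other replication genes, 25 rose with the ADAR siRNA and none fell (11% and 10.8% of all tested genes), with CLSPN, the adaptor of the replication checkpoint, at 1.17 ± 0.11 (adjusted p = 4.56e-07) and the origin subunit ORC6 at 0.97 ± 0.13 (adjusted p = 3.06e-05). With the ADARB1 siRNA none rose and 1 fell (2.1% and 2.51% of all tested genes), the histone mRNA binding protein gene SLBP (-0.45 ± 0.08, adjusted p = 0.00248). Set directly against the ADARB1 siRNA, the ADAR siRNA gave 22 higher and none lower (9.9% and 9.64% of all tested genes), led by SLBP (0.87 ± 0.08, adjusted p = 3.65e-07). IFNa gave 9 higher and 11 lower, against 18.4% and 15.9% of all tested genes, among them the helicase subunit GINS4 at -1.51 ± 0.17 (adjusted p = 6.43e-06) and ORC3 at 0.97 ± 0.15 (adjusted p = 0.000198). With BX795, 10 rose and 17 fell, against 23.4% and 23.7% of all tested genes, with the polymerase subunit POLD1 at -0.85 ± 0.10 (adjusted p = 6.56e-06) and GINS1 at -1.65 ± 0.21 (adjusted p = 9.29e-06). BX795 with the ADAR siRNA gave 8 higher and 19 lower against siNC, where 21.4% and 18.9% of all tested genes were called, including the thymidine kinase TK1 (-2.68 ± 0.25, adjusted p = 2.52e-07) and CLSPN (-1.92 ± 0.20, adjusted p = 6.55e-07). Against BX795 it gave 1 higher and 8 lower (5.06% and 4.46% of all tested genes).

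Of 44 other mitotic genes, 23 rose with the ADAR siRNA and none fell (11% and 10.8% of all tested genes), among them the phosphatase CDC25B (1.07 ± 0.09, adjusted p = 1.66e-07) and the cytokinesis factor ECT2 (0.66 ± 0.07, adjusted p = 1.41e-06). The ADARB1 siRNA lowered 5 and raised none (2.51% and 2.1% of all tested genes), with the centrosome kinase NEK2 at -0.73 ± 0.15 (adjusted p = 0.00544). With the ADAR siRNA 34 were higher than with the ADARB1 siRNA and 1 lower (9.9% and 9.64% of all tested genes), including ANLN, the scaffold of the contractile ring (1.17 ± 0.10, adjusted p = 1.53e-07). IFNa gave 7 higher and 10 lower, against 18.4% and 15.9% of all tested genes, and the kinetochore gene SPC24 stood at -1.30 ± 0.21 (adjusted p = 0.000225). With BX795 1 rose and 28 fell, against 23.4% and 23.7% of all tested genes, SPC24 by 2.39 ± 0.20 (adjusted p = 1.13e-07). With BX795 and the ADAR siRNA 40 of 44 were lower than with siNC and 1 higher, against 18.9% and 21.4% of all tested genes, with a median of -1.74. The condensin subunit NCAPG changed by -2.28 ± 0.16 (adjusted p = 8.49e-09) and the kinetochore scaffold KNL1 by -2.11 ± 0.15 (adjusted p = 8.52e-09). Against BX795, 25 were lower and 1 higher (4.46% and 5.06% of all tested genes), with a median of -0.81.

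The regulators of these programmes (pocket proteins, other E2F family members, DREAM subunits, cyclins D2 and D3, CDKs and CDK inhibitors; 27 of 28 tested) were called in both directions in several comparisons. With the ADAR siRNA 13 rose and 4 fell, against 11% and 10.8% of all tested genes. The CDK inhibitor genes CDKN1A (0.58 ± 0.06, adjusted p = 1.89e-06) and CDKN1B (0.25 ± 0.08, adjusted p = 0.0367) were among those that rose. CDKN2B, CDKN2C and CDKN2D were not called. The cyclin gene CCND2 stood at 120 ± 2.17 CPM against 68.0 ± 2.09 CPM with siNC (0.82 ± 0.06, adjusted p = 1.48e-08) and CCND3 at 66.2 ± 1.47 against 39.8 ± 0.407 CPM (0.74 ± 0.08, adjusted p = 1.27e-06). Unlike CCND1, both also rose with the ADARB1 siRNA, CCND2 by 0.35 ± 0.06 (adjusted p = 0.00117) and CCND3 by 0.56 ± 0.08 (adjusted p = 0.00016), where 3 of the set rose and 1 fell (2.1% and 2.51% of all tested genes). CDC25A, the phosphatase that opens the way into S phase, was higher with the ADAR than with the ADARB1 siRNA, at 14.9 ± 1.23 against 5.36 ± 0.233 CPM (1.47 ± 0.12, adjusted p = 1.02e-07). With IFNa 5 rose and 4 fell, shares close to the 18.4% and 15.9% of all tested genes. TFDP2 had the smallest p of the set and fell by 0.67 ± 0.07 (adjusted p = 3.89e-06), from 85.6 ± 6.74 to 53.9 ± 0.85 CPM. RB1, the retinoblastoma gene, rose by 0.60 ± 0.10 (adjusted p = 0.000342), from 34.8 ± 5.52 to 53.1 ± 3.7 CPM. RB1 also rose against siNC with BX795 (0.69 ± 0.09, adjusted p = 1.65e-05) and with BX795 and the ADAR siRNA (0.83 ± 0.10, adjusted p = 5.02e-06). With BX795 9 rose and 10 fell, against 23.4% and 23.7% of all tested genes. CDKN1A, which codes for the CDK inhibitor p21, fell by 0.58 ± 0.06 (adjusted p = 1.78e-06), and CDKN2B, which codes for the CDK4/6 inhibitor p15, rose by 0.70 ± 0.08 (adjusted p = 2.61e-06). With BX795 and the ADAR siRNA CCND2 reached 198 ± 0.464 CPM (1.10 ± 0.07 against siNC, adjusted p = 1.07e-09), and WEE1, the kinase that restrains CDK1, fell by 0.77 ± 0.08 (adjusted p = 5.68e-07).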

How the data were processed

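Total RNA was sequenced after removal of ribosomal RNA with directional libraries, per the labels' protocols. The authors deposited 1 table of estimated counts for each gene and library. STAR, Salmon and the build GRCh38.p14 are named in the submitters' processing notes, and the sources used here give no versions or settings. Of the values 94.82% lay within 0.005 of a whole number, and counts were rounded. Reads shared between a member and a pseudogene copy may have been divided between them, which was not examined.

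Tests used edgeR 4.0.16 under R 4.3.3 (TMM scaling, default filterByExpr, quasi-likelihood F test) in 1 model of all 19 libraries with 1 mean per group and 12 residual degrees of freedom. Benjamini-Hochberg adjustment ran over all 23121 tested genes, with calls made where the adjusted p was under 0.05. The common biological coefficient of variation was 11.2%, and 6.8% and 14.4% in fits of batches 1 and 2 alone, so the shared fit can give p-values that are too large in batch 1 and too small in batch 2. Adjusted p-values and log2 fold changes with their SE are from this fit unless another is named. Levels are TMM-scaled CPM.

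Alternatives were fits of the batch alone, DESeq2 1.42.0, its size factors, no filter, a replicate block, a per-library spline correction for transcript GC content (lengths and GC from GENCODE transcripts), and leaving out each library. Same-numbered libraries did not deviate together, so the numbers were not taken as pairs. Members and lists were chosen with earlier results of these data known. All members could be named; values in every library are given for the 3 genes of each class with the smallest p in each comparison against siNC and for CCND1, and the 2 genes with the smallest p were taken from each of the 3 other sets in a comparison, of which the text names some. Others were named after their values were seen.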

Additional observations from a re-analysis of the deposited data

Results flagged for a closer look

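The response to the ADAR siRNA differed between cells without BX795 (batch 1) and with it (batch 2), by a test of the difference itself in edgeR with Benjamini-Hochberg adjustment. It was called for 13 S-phase genes and 20 mitotic genes, all negative. Of all tested genes 2% were called negative and 1.42% positive. Of the genes with the smallest p among S-phase genes in these comparisons, RRM2 differed by -1.95 ± 0.23 (log2, SE; adjusted p = 7.7e-05), the licensing factor CDT1 by -1.90 ± 0.28 (adjusted p = 0.000541) and TYMS by -0.82 ± 0.12 (adjusted p = 0.000541). Of the mitotic genes, TOP2A differed by -2.0 ± 0.15 (adjusted p = 6.67e-07), MKI67 by -1.82 ± 0.16 (adjusted p = 4.45e-06) and BIRC5 by -2.60 ± 0.25 (adjusted p = 1.04e-05). BX795 and the batch cannot be told apart in this contrast. No group held 4 or more libraries, so none could be screened for a single outlying library.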

How the results depend on the processing

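Each value is a count of called members, with the count reported above in brackets. Under the fit of the batch alone, the mitotic count was 17 (5) for ADARB1 siRNA and 1 (4) for IFNa, and the S-phase count 2 (6) for IFNa and 3 (6) for BX795 with ADAR siRNA against BX795. GC correction gave 8 mitotic genes for ADARB1 siRNA and 10 S-phase genes for BX795 with ADAR siRNA against BX795, all lower, where 4.08% and 6.42% of all tested genes were called lower. GC correction with the replicate block gave 9 and 10 (3.34% and 5.42%), and DESeq2 10 and 10 (4.02% and 6.86%). Under the fit of the batch alone these shares were 7.76% for ADARB1 siRNA, 8.14% for IFNa and 1.89% for BX795 with ADAR siRNA against BX795. With siNC replicate 1 as the only batch 2 control, chosen after seeing the data, IFNa had 2 S-phase and 0 mitotic genes, against 3.91% of all tested genes lower and 4.59% higher. The replicate block alone, DESeq2 size factors and no filter left all 16 counts within 1.5 times, and the block gave no call or loss among the named genes. Leaving out each library gave S-phase and mitotic counts of 10 to 13 and 9 to 11 for ADAR siRNA, 1 to 2 and 1 to 6 for ADARB1 siRNA, 9 to 12 and 18 to 22 between these siRNAs, 1 to 6 and 0 to 6 for IFNa, 10 to 14 and 15 to 19 for BX795, 12 to 14 and 22 to 22 for BX795 with ADAR siRNA, 3 to 5 and 16 to 19 for the latter against BX795, and 10 to 12 and 17 to 20 for the interaction. For these leave-out counts the share of all tested genes called was not counted. Fold changes were checked for sign in the genes with the smallest p in each class and comparison, and in CCND1. None changed sign. The interaction and the other genes were not checked for sign. Same-numbered libraries correlated at -0.08 to 0.12 (batch 1) and -0.19 to 0.19 (batch 2) in their deviations from the group mean. In batch 2, depth limited genes such as MYBL2, with 9 and 19 counts with BX795 and the ADAR siRNA.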
